A study of Mus musculus with 10 samples.

Results

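The copy number of Etv6, Rb1 and Btg1 was examined in 10 mouse leukemias made with BCR-ABL1, the constitutively active tyrosine kinase of the Philadelphia translocation. The loci were taken by position in build mm9, and every non-control probe inside them was used, which gave 2132 of 402346 placed probes. Leukemic bone marrow cells carrying GFP came from 5 Ikzf1+/+ and 5 Ikzf1+/- tumours, and the DNA of each was labelled with Cy5. Non-leukemic bone marrow DNA of the matching stage was labelled with Cy3, and the series' design text calls the normal DNA that of B220+ B cells. Every tumour of both groups thus carried BCR-ABL1, and the genotype at Ikzf1, which encodes the lymphoid transcription factor Ikaros, was the only labelled difference between them. Genotype was largely tied to slide, since only 1 slide held both, with 1 array each. The median background-subtracted Cy5 signal was 88.4 to 159 on the Ikzf1+/+ arrays and 199 to 225 on the Ikzf1+/- arrays. Genotype, slide and signal thus cannot be told apart in the comparisons below. The labels gave no age or strain and did not state that the tumours of a genotype came from separate animals, so a p-value here measures the spread among the tumours sampled, which may be technical. The genotype labels were taken as given. Lists of 5 values below run from tumour 1 to tumour 5 of a genotype.

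Etv6 encodes a transcriptional repressor of the ETS family that haematopoietic stem cells need in adult bone marrow, and in human B-cell acute lymphoblastic leukemia it is both a partner in gene fusions and a target of deletion. Rb1 encodes the retinoblastoma protein, a pocket protein that holds E2F factors inactive and so restrains entry into S phase until cyclin-dependent kinases phosphorylate it. Btg1 encodes an antiproliferative protein of the BTG/TOB family that recruits the CCR4-NOT deadenylase to messenger RNA, and small deletions at BTG1 recur in human B-cell leukemia. An array of this kind measures only how much DNA of a locus the tumour holds against the reference. A loss of 1 of 2 copies in all cells would give a log2 ratio of -1, and a loss in part of the cells a value nearer 0.

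All 3 loci were covered far more densely than the autosomal median. Other stretches were tiled densely too, such as 534 probes over 180 kb on chromosome 11. The Etv6 locus (chr6:133950000-134260000, 310 kb, mm9) held 1184 probes with a median spacing of 221 bp. The Rb1 locus (chr14:73560000-73780000, 220 kb) held 576 probes at 297 bp, and the Btg1 locus (chr10:96030000-96140000, 110 kb) held 372 probes at 232 bp. At the autosomal median spacing of 5.34 kb, stretches of these lengths would hold 58, 41 and 21 probes. A run of 5 consecutive probes, the shortest that could be called, spanned a median of 1.03 kb at Etv6, 1.38 kb at Rb1 and 1.11 kb at Btg1. The coverage had holes, the longest of which were 6.301 kb in Etv6, 7.988 kb in Rb1 and 6.563 kb in Btg1, and a loss inside one of them would not have been seen. Probes that stood well above background in each channel of every array, with no saturation, made up 98.6% of the Etv6, 91.1% of the Rb1 and 97.3% of the Btg1 probes. The files give no exon or intron for these probes.

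No loss was called at Etv6, Rb1 or Btg1 in any of the 10 tumours. A called loss was a segment of at least 5 probes with a mean log2 ratio of -0.3 or lower, which corresponds to a loss of 1 of 2 copies in 37.5% of the cells. The segmentation first had to set such probes apart, and a short run needed a mean well below -0.3 for that. In Ikzf1+/+ tumour 4, 8 Rb1 probes with a mean of -0.474 were not set apart. The absence of a call thus says less about short losses than about long ones. None of the 9 windows of 100 kb that overlap the loci held a called loss in any array, where 0.423% of all autosomal windows did in at least 1 array. Apart from 1 short segment, the segments that overlapped the loci ran over 0.714 to 145 Mb, and their means lay between -0.0330 and 0.0624. The segmentation placed 1 short segment inside a locus, 3 probes at chr14:73765608-73766247 in Ikzf1+/+ tumour 1, and it was high, with a mean of +1.1. The same 3 probes lay at 0.350, 0.0564, 0.667 and 0.148 in Ikzf1+/+ tumours 2 to 5. In the Ikzf1+/- tumours they lay at 0.00248, -0.0100, -0.194, -0.0527 and -0.146, so the high values were in Ikzf1+/+ tumours and only in some of them.

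**Figure D1:**
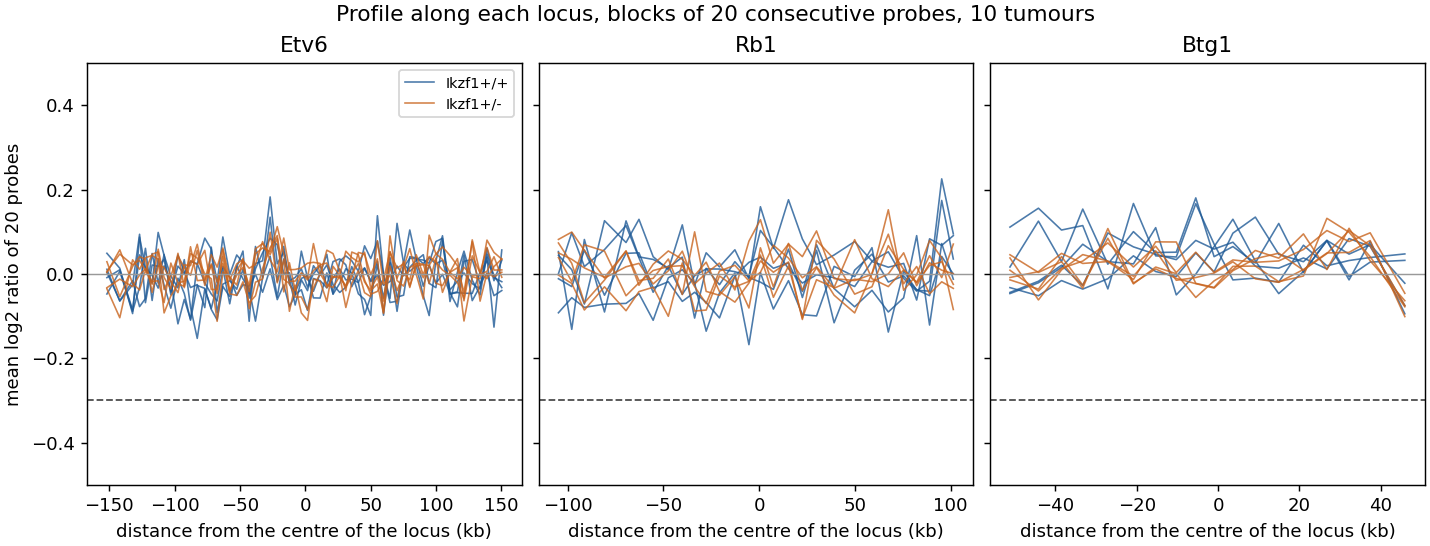
Mean log2 ratio of tumour over non-leukemic DNA for blocks of 20 consecutive probes (y axis) against distance in kb from the centre of each locus (x axis), with a line for each of 5 Ikzf1+/+ (blue) and 5 Ikzf1+/- (orange) tumours and the call threshold of -0.3 dashed. Every line stays between -0.168 and 0.225, with no step toward the threshold.

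Along the Etv6 locus, 59 blocks of 20 probes in 10 tumours gave 590 values, from -0.153 to 0.183. The 280 block values of Rb1 ran from -0.168 to 0.225, and the 180 of Btg1 from -0.101 to 0.180. No block of any tumour reached -0.2, and 1 block, at Rb1, reached +0.2. The plot of blocks along each locus shows the lines of both genotypes around 0 from end to end.

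The Etv6 locus mean was -0.0141, -0.0201, -0.0143, 0.000805 and 0.00982 in the Ikzf1+/+ tumours. It was 0.0147, -0.00289, 0.0134, -9.16e-05 and -0.00952 in the Ikzf1+/- tumours. The groups overlapped, and tumours of each genotype lay on both sides of 0. The group means were -0.0076 ± 0.012 and 0.0031 ± 0.011 (SD, n = 5 each), a difference of +0.011 which the spread among tumours covered (exact permutation test, two-sided, p = 0.167).

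The Rb1 locus mean was 0.0530, 0.0233, -0.00195, -0.0383 and -0.0137 in the Ikzf1+/+ tumours. In the Ikzf1+/- tumours it was 0.00785, 0.00403, -0.00486, 0.0298 and -0.0240. Ikzf1+/+ tumour 1 was the highest and Ikzf1+/+ tumour 4 the lowest of all 10, so the Ikzf1+/+ tumours enclosed the range of the others. The group means were 0.0045 ± 0.035 and 0.0026 ± 0.020 (SD, n = 5 each; difference -0.0019, exact permutation p = 0.905). The sign of this difference turned without Ikzf1+/+ tumour 1 (0.010), Ikzf1+/+ tumour 2 (0.0028) or Ikzf1+/- tumour 5 (0.0047).

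The Btg1 locus mean was above 0 in 10 of 10 tumours. It was 0.0628, 0.0269, 0.0267, 0.0567 and 0.0211 in the Ikzf1+/+ tumours and 0.0133, 0.0319, 0.0159, 0.0197 and 0.0182 in the Ikzf1+/- tumours. Ikzf1+/+ tumours 1 and 4 stood above the other 8, and the groups overlapped. The means were 0.039 ± 0.019 and 0.020 ± 0.0072 (SD, n = 5 each; difference -0.019, exact permutation p = 0.0714; the smallest p that 5 against 5 allows is 0.00794). It was -0.023 without Ikzf1+/+ tumour 5 (exact permutation p = 0.0317) and -0.022 without Ikzf1+/- tumour 2 (p = 0.0476), each of which passed. All 3 differences moved with the scaling. Without centring, they were +0.031 (exact permutation p = 0.00794) at Etv6, +0.019 at Rb1 and +0.0017 at Btg1. After centring on the chromosome, they were +0.0023, -0.016 and -0.034, and the last passed the test (exact permutation p = 0.00794). With normexp background correction, they were +0.165 (exact permutation p = 0.00794), +0.013 and +0.093 (p = 0.00794). The direction at Rb1 and Btg1 thus turned with the scaling, and that at Etv6 did not.

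**Figure D2:**
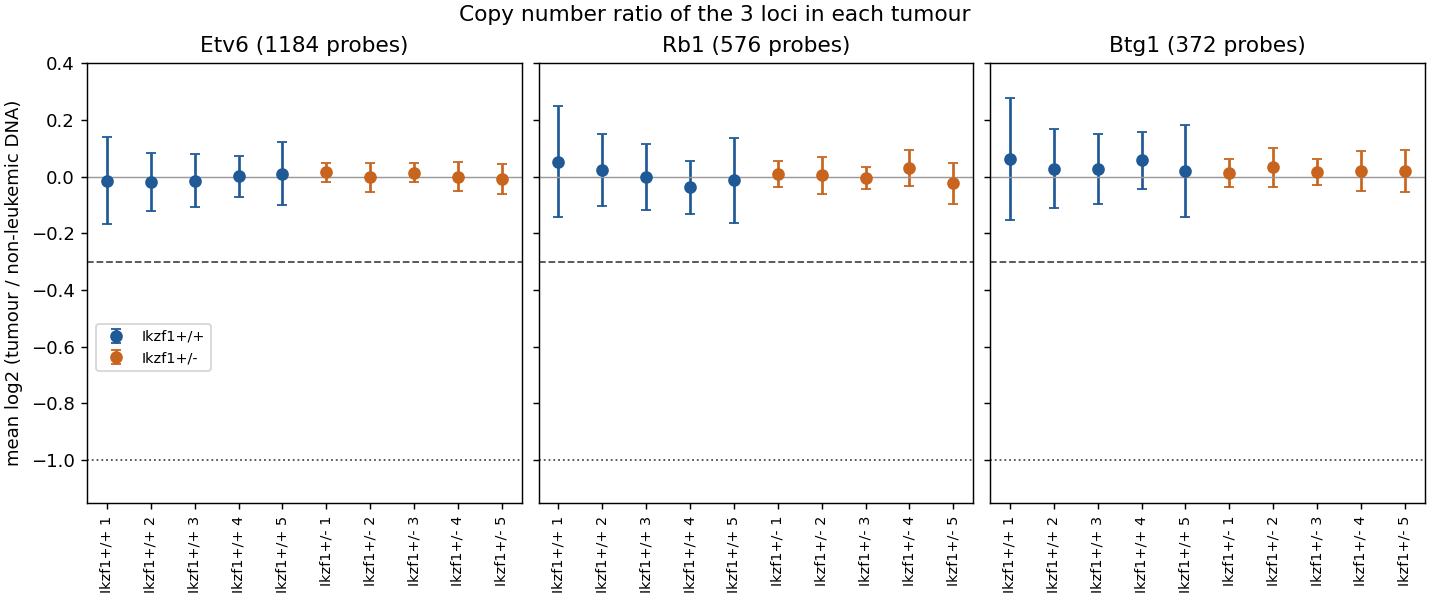
Mean log2 ratio over all probes of each locus (y axis) in each tumour (x axis), Ikzf1+/+ blue and Ikzf1+/- orange; bars are ± 3 robust SDs of the means of autosomal runs with as many probes on that array, the dashed line is the call threshold of -0.3 and the dotted line is -1, a 1-copy loss in all cells. All 30 points lie between -0.0383 and 0.0628, and every bar ends above the dashed line.

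How small a loss the arrays could show was judged from the spread of run means over the autosomes. On each array the means of all non-overlapping autosomal runs with as many probes as the locus were taken, and 3 times their robust SD was used as the limit. Each of the 30 locus means lay within its limit of 0. At the autosomal median spacing such runs cover longer stretches than the locus, so the limit holds broad shifts as well as probe noise. At Etv6 the robust SD of the run means was 0.0109 to 0.0506, and the standard error over the locus probes 0.00485 to 0.00667. Given as the share of cells with a 1-copy loss of the whole locus, with 2 reference copies and a linear response assumed, the Etv6 limit was 19.98, 13.6, 12.4, 9.66 and 14.8% in the Ikzf1+/+ tumours. It was 4.64, 7.06, 4.49, 7.08 and 7.21% in the Ikzf1+/- tumours. The limits of the groups did not overlap, with 14.1% ± 3.80 and 6.10% ± 1.40 (SD, n = 5 each, exact permutation p = 0.00794), so the limit was lower on the Ikzf1+/- arrays. The median Cy5 signal at Etv6 was 181 ± 24.5 on the Ikzf1+/+ and 242 ± 13.7 on the Ikzf1+/- arrays (SD, n = 5 each). Genotype, slide and signal cannot be told apart here. At Rb1 the limit was 17.9% ± 4.86 and 7.79% ± 1.87, and at Btg1 19.4% ± 5.45 and 8.36% ± 1.72 (SD, n = 5 each, exact permutation p = 0.00794 at each). The limits of all loci rest on the same autosomal probes of an array and take only the probe number from the locus. Their tests are thus not separate results. The highest limits were 25.3% at Rb1 and 27.8% at Btg1, both in Ikzf1+/+ tumour 1. For 5 probes the same limit was 30.3 to 46.9% of the cells, while the call threshold of -0.3 stands at 37.5% on every array. Neither is the smallest 5-probe loss that would be called, since the segmentation must first set the probes apart. Runs of 5 probes at -0.465 in Etv6 (Ikzf1+/+ tumour 1) and -0.514 in Rb1 (Ikzf1+/+ tumour 4) were not set apart. The lowest run of 5 probes went past the 5-probe limit of its own array in 4 of 10 tumours at Etv6, 8 at Rb1 and 3 at Btg1. That limit describes a single run, and the lowest was taken from all runs of the locus. A loss of the whole locus in fewer cells than its limit would not have stood out by this measure.

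**Figure D3:**
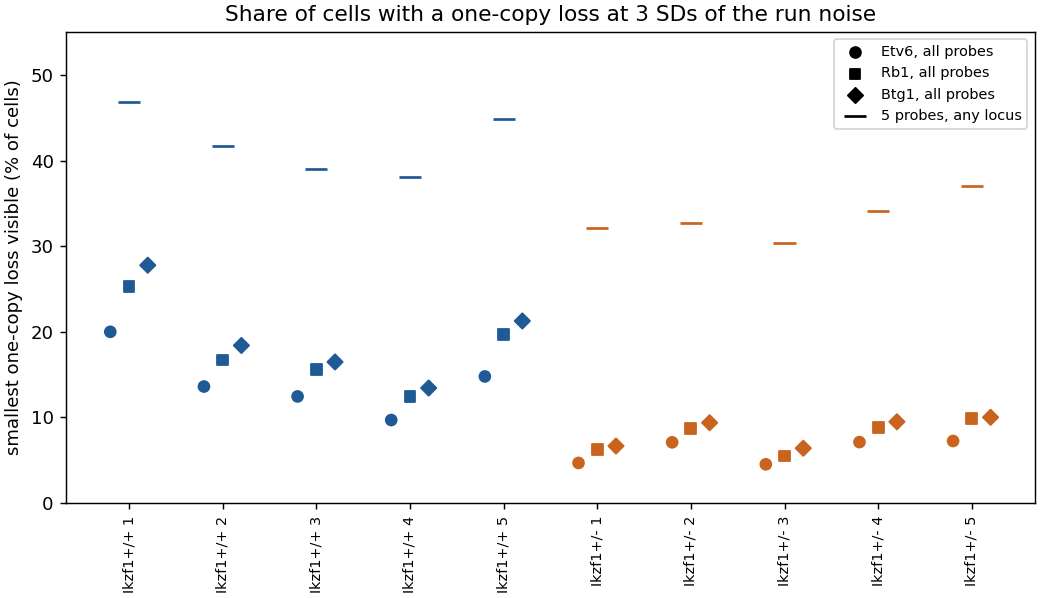
Smallest 1-copy loss that could be seen, as a percentage of cells (y axis, from 0), in each tumour (x axis), for a loss of the whole Etv6 (circles), Rb1 (squares) or Btg1 (diamonds) locus and for a loss of 5 probes (dashes); Ikzf1+/+ blue, Ikzf1+/- orange. Whole-locus limits of Ikzf1+/+ arrays start at 9.66% and those of Ikzf1+/- arrays end at 9.98%, while 5-probe limits lie between 30.3 and 46.9%. The 5-probe limit describes the noise of a single run and not the smallest loss that the segmentation would call.

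Outside chromosome 12, losses over at least 100 probes were called on 3 of the 10 arrays. In Ikzf1+/+ tumour 4, 229 probes at chr14:10839768-10900118 had a mean log2 ratio of -0.817 and the next segment, 138 probes at chr14:10901251-10960038, one of -0.877, on the same chromosome as Rb1. In Ikzf1+/+ tumour 5, 177 probes at chr4:88859687-89076517 had a mean of -0.585, and 183 probes at chr5:3400849-3459936 one of -0.339. In Ikzf1+/- tumour 5, adjoining segments of 534 and 496 probes at chr11:44369539-44549789 and chr11:44550016-44703340 had means of -0.483 and -0.329, and 182 probes at chr5:3401290-3459936, nearly the same place as in Ikzf1+/+ tumour 5, had -0.312. Tumours of both genotypes thus held called losses over stretches of 138 to 534 probes. No gene was assigned to them.

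At the scale of 5 consecutive probes, single runs did go below -0.3. The lowest run in Etv6 was -0.465, -0.411, -0.295, -0.363 and -0.274 in the Ikzf1+/+ tumours and -0.218, -0.252, -0.227, -0.259 and -0.313 in the Ikzf1+/- tumours. Of 11799 Etv6 runs in the 10 arrays, 15 (0.127%) were at -0.3 or lower, against 0.678% of all autosomal runs. The autosomal share was 1.79, 1.21, 0.59, 0.792 and 1.2% on the Ikzf1+/+ arrays and 0.101, 0.214, 0.062, 0.231 and 0.597% on the Ikzf1+/- arrays, highest for Ikzf1+/+ tumour 1 and lowest for Ikzf1+/- tumour 3. On each of the 10 arrays the Etv6 share was the lower, as a description, since overlapping runs share probes.

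The lowest run in Rb1 was -0.365, -0.341, -0.336, -0.514 and -0.418 in the Ikzf1+/+ tumours and -0.327, -0.316, -0.305, -0.224 and -0.413 in the Ikzf1+/- tumours. Of 5720 Rb1 runs, 45 (0.787%) were at -0.3 or lower, against 0.678% of all autosomal runs. The Rb1 share was lower than the autosomal share on 5 of the 10 arrays. Ikzf1+/+ tumour 4 held 21 of the 45 low runs, 3.67% of its Rb1 runs against 0.792% of its autosomal runs. It also had the lowest Rb1 locus mean. With probes left out that were not well above background or were saturated, 7 of 5210 Rb1 runs were that low, beside 0.421% over the autosomes. In Ikzf1+/+ tumour 4, 1 was left, 0.192% against 0.375% over the autosomes. The lowest 20 consecutive Rb1 probes of this tumour had a mean of -0.216, the lowest of any tumour and locus.

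The lowest run in Btg1 was -0.242, -0.344, -0.193, -0.271 and -0.405 in the Ikzf1+/+ tumours and -0.184, -0.154, -0.160, -0.280 and -0.242 in the Ikzf1+/- tumours. Of 3679 Btg1 runs, 7 (0.190%) were at -0.3 or lower, 6 of them in Ikzf1+/+ tumour 5, where they made up 1.63% of the Btg1 runs against 1.2% of the autosomal runs. Without dim or saturated probes 1 of these was left, 0.279% against 0.828% over the autosomes. The lowest 20 consecutive probes were at -0.178 in Etv6 and -0.119 in Btg1.

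**Figure D4:**
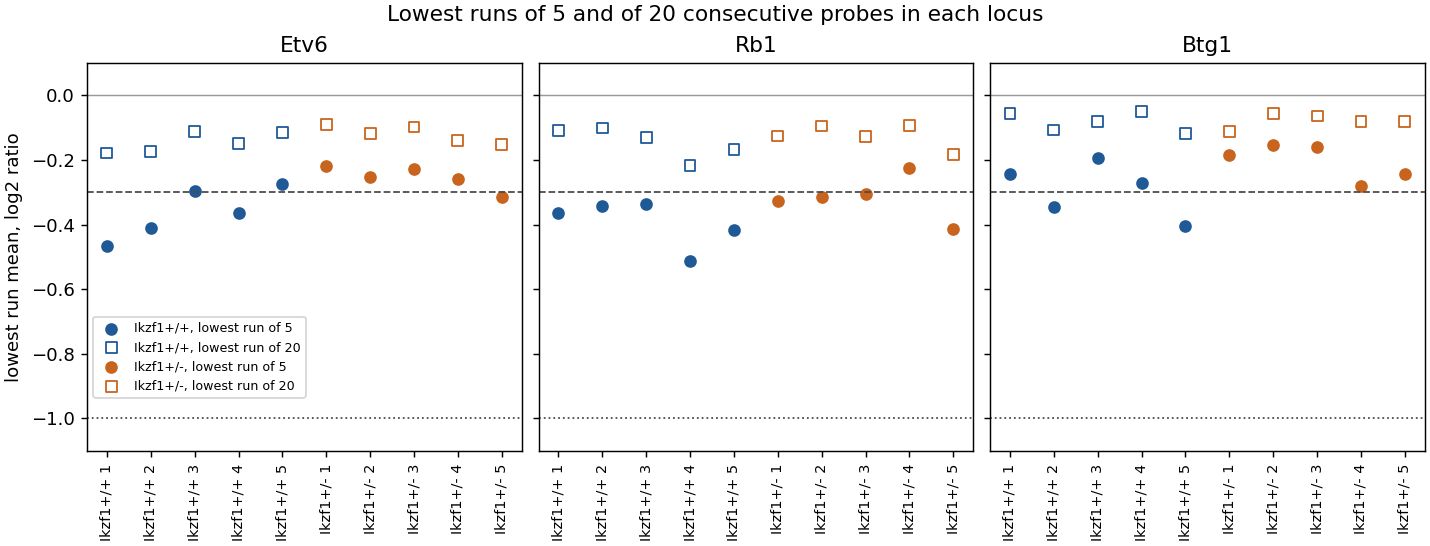
Lowest mean log2 ratio over 5 (filled circles) and over 20 (open squares) consecutive probes of each locus (y axis) in each tumour (x axis), Ikzf1+/+ blue and Ikzf1+/- orange, with the call threshold of -0.3 dashed and -1 dotted. Runs of 5 reach -0.514 at most, and no run of 20 is lower than -0.216.

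The probes of Rb1 scattered more than those of the other loci. The SD of single-probe log2 ratios was higher at Rb1 than at Etv6 by 0.054 ± 0.019 and than at Btg1 by 0.045 ± 0.022, in 10 of 10 tumours each (SD of the difference, n = 10, exact sign-flip permutation test, p = 0.00195, the smallest possible). Btg1 exceeded Etv6 by 0.0092 ± 0.0088, in 9 of 10 tumours (SD, n = 10, exact permutation p = 0.00781). The Rb1 probes were also the dimmest of the 3 loci, with a median Cy3 signal of 168 ± 26.1 against 216 ± 35.1 at Etv6 and 189 ± 28.3 at Btg1 (SD, n = 10 arrays). They lay near the median of all non-control spots, with 128 against 126 in Ikzf1+/+ tumour 1 and 196 against 193 in Ikzf1+/- tumour 1, the lowest and highest arrays at Rb1. With probes left out that were not well above background or were saturated, an alternative added after seeing the data, Rb1 exceeded Etv6 by 0.020 ± 0.0088 in 10 of 10 tumours (SD, n = 10, exact permutation p = 0.00195). It then exceeded Btg1 by 0.017 ± 0.013 in 9 of 10 (exact permutation p = 0.00977), and Btg1 and Etv6 differed by 0.0037 ± 0.0085 (exact permutation p = 0.213). The excess at Rb1 was thus smaller without these probes, and that of Btg1 over Etv6 no longer passed.

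Single probes did not mark a shared deletion. The Etv6 probe with the lowest mean, at chr6:133988403-133988462, had -0.37 ± 0.50 (SD, n = 10) and was below 0 in 7 of 10 tumours, while the probes on either side had means of -0.020 and 0.066. At Rb1 the lowest, at chr14:73583780-73583839, had -0.480 ± 0.564 and was below 0 in 9 of 10 tumours, beside neighbours at -0.092 and -0.043. At Btg1 the lowest, at chr10:96125356-96125415, had -0.284 ± 0.443 and was below 0 in 8 tumours. Each of these low values was thus that of a lone probe, and they were chosen as extremes and carry no test.

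The probes with the highest means showed a split between genotypes at Etv6 and Btg1. The Etv6 probe at chr6:134079690-134079734 had 1.56, 0.697, 0.390, 1.70 and 1.07 in the Ikzf1+/+ tumours and -0.00524, 0.364, -0.208, 0.102 and 0.00434 in the Ikzf1+/- tumours. The Btg1 probe at chr10:96084753-96084798 had 1.25, 0.531, 0.338, 1.07 and 0.219 in the Ikzf1+/+ tumours and -0.0128, -0.0102, 0.135, 0.0417 and -0.123 in the Ikzf1+/- tumours. In both cases the groups did not overlap, and the probes next to them had means over the 10 tumours between -0.076 and 0.026. These probes too were chosen as extremes and carry no test. The share of all autosomal probes whose groups do not overlap was not counted. The highest Rb1 probe, at chr14:73721911-73721970, owed its mean of 0.423 to Ikzf1+/- tumour 5, where it was 3.21. Of the 1183 Etv6 probes measured in all 10 tumours, 17 were below 0 in each of them, of 576 Rb1 probes 5 and of 371 Btg1 probes 4. These are 1.44, 0.868 and 1.08% of the probes, beside 0.998% of all autosomal probes. Above 0 in each tumour were 19 Etv6, 10 Rb1 and 4 Btg1 probes, which are 1.61, 1.74 and 1.08%, beside 0.976% of all.

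Windows of 100 kb were compared between the genotypes with limma over all autosomes. None of the 9 windows over the loci passed at a Benjamini-Hochberg adjusted p of 0.05, and 0 had an unadjusted p under 0.05, beside 0.0213% and 16.6% of all 23425 windows. The differences, Ikzf1+/- minus Ikzf1+/+, ran from -0.030 to +0.021. The largest was in the Btg1 window that starts at position 96000001, with 0.044 ± 0.032 and 0.014 ± 0.0077 (SD, n = 5 each, limma adjusted p = 0.537). Runs of 5 probes in place of windows, an alternative chosen after seeing the data, gave 0 calls among 235 runs of Etv6, 114 of Rb1 and 73 of Btg1, beside 0.106% of 76418 autosomal runs. By unadjusted p under 0.05 there were 17 (7.23%), 8 (7.02%) and 7 (9.59%), beside 12.4% of all.

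The run nearest to a call was in Btg1, at chr10:96080465-96081575. It had 0.407, 0.132, 0.165, 0.256 and 0.0866 in the Ikzf1+/+ tumours and -0.109, -0.0586, -0.0865, -0.0393 and -0.124 in the Ikzf1+/- tumours. The groups did not overlap and lay on opposite sides of 0, with a difference of -0.29 (limma adjusted p = 0.0569). This run was picked for the smallest p among the 73 Btg1 runs. The share of all autosomal runs whose groups do not overlap was not counted. The nearest Etv6 run, at chr6:134079470-134080641, holds the high probe named above and had 0.235 ± 0.109 and 0.029 ± 0.069 (SD, n = 5 each, limma adjusted p = 0.179). The nearest Rb1 run, at chr14:73743834-73746011, went the other way, with -0.039 ± 0.060 and 0.127 ± 0.120 (SD, n = 5 each, limma adjusted p = 0.267).

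The last comparison set each locus against the probes within 1 Mb on either side of it, which takes out broad shifts of the chromosome. At Etv6 the locus minus flanks was -0.0271, 0.0134, 0.0153, -0.0167 and 0.0239 in the Ikzf1+/+ tumours and 0.0244, 0.00512, 0.0184, 0.00640 and 0.00612 in the Ikzf1+/- tumours. It was above 0 in 8 of 10 tumours, with 0.0069 ± 0.017 (SD, n = 10, exact sign-flip permutation p = 0.219). Without Ikzf1+/+ tumour 1 it was 0.011 (exact permutation p = 0.0391), and with flanks of 500 kb 0.016 (p = 0.00977). At Rb1 it was 0.0299, 0.00650, -0.0220, -0.0274 and -0.0112 in the Ikzf1+/+ tumours and -0.00156, 0.00771, 0.0118, 0.00512 and -0.00759 in the Ikzf1+/- tumours, around 0 in both groups (-0.00087 ± 0.017, SD, n = 10, exact permutation p = 0.883). Its sign turned without Ikzf1+/+ tumour 3 (0.0015), 4 (0.0021) or 5 (0.00028).

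At Btg1 the locus minus flanks was 0.0157, 0.0337, 0.0168, 0.0297 and 0.0227 in the Ikzf1+/+ tumours and 0.00132, 0.00351, -0.00168, 0.0154 and 0.00219 in the Ikzf1+/- tumours. It was above 0 in 9 of 10 tumours, with a mean of 0.014 ± 0.012 (SD, n = 10, exact sign-flip permutation p = 0.00586). The call was lost with the median over probes (0.0069, exact permutation p = 0.186) and with flanks of 500 kb (0.0060, p = 0.195). The dyes were never swapped, so a dye effect at these probes and a difference in DNA cannot be told apart. The groups did not overlap, and the genotype difference, a comparison added after seeing the data, was -0.020 (0.024 ± 0.0079 and 0.0041 ± 0.0066, SD, n = 5 each, exact permutation p = 0.00794). The same difference was +0.010 at Etv6 (exact permutation p = 0.373) and +0.0079 at Rb1 (p = 0.476), so Btg1 was the locus where it passed. How many other stretches of the autosomes would pass this comparison was not counted. Of all autosomal windows of 100 kb, 16.6% had an unadjusted limma p under 0.05 between the genotypes. The Btg1 difference was -0.016 by the median over probes (exact permutation p = 0.103), and with normexp +0.026 (exact permutation p = 0.119), the opposite direction.

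By their order in the GRCm38 gene table, the first named genes on the distal side of Etv6 are Bcl2l14, Lrp6, Mansc1, Borcs5, Dusp16, Crebl2 and Gpr19, followed by Cdkn1b, the gene of the cyclin-dependent kinase inhibitor p27. Lpar6, a lysophosphatidic acid receptor gene, lies within Rb1, with Rcbtb2 and Cysltr2 on the proximal side and Itm2b and Med4 on the distal side. Btg1 lies between Eea1 and Nudt4 on the proximal side and Dcn and Lum on the distal side. Probes were not assigned to these genes, and the flanks are given by side. The proximal flank of Etv6 had means from -0.069 to -0.0023, below 0 in 10 of 10 tumours, and the distal flank, the side of Cdkn1b, from -0.013 to 0.034. The proximal and distal flanks of Rb1 ran from -0.025 to 0.059 and from -0.043 to 0.021. Those of Btg1 ran from 0.0010 to 0.068 and from -0.015 to 0.027, so no flank mean came near -0.3.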

How the data were processed

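The deposited scanner files gave each spot's Cy5 and Cy3 intensity as processed signals, background-subtracted and dye-normalised by the scanner software (Agilent Feature Extraction 10.7.3.1 and build mm9 per the file headers; 10.5.1.1 per the submitters' processing notes). The scanner's log10 ratio of Cy5 over Cy3, also deposited, settled the scale and direction of the authors' series matrix: its log2 ratios had a slope of 1.00 against it on every array and were not centred, with column medians of -0.0104, -0.010, -0.0194, -0.0114 and -0.0142 on the Ikzf1+/+ arrays and -0.0011, -0.0011, -0.00060, -0.0019 and -0.0030 on the Ikzf1+/- arrays.

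Log2 of Cy5 over Cy3 was computed per probe without spots flagged as outliers and centred on the autosomal median. Segments came from penalised least-squares change points (PELT, coded in Python 3.11.15 and numba 0.67.0). Segments needed 3 probes, the penalty was the log of the probe count multiplied by 2 noise variances, and values were first clipped at 4 noise SDs from a running 11-probe median. Probe noise was 0.171 to 0.222 (SD), and 0 to 19 losses were called per array. In R 4.3.3, limma 3.58.1 tested windows of 100 kb holding at least 3 probes. Single values had exact permutation tests over 252 splits or 1024 sign flips. The procedures were tested on simulated data, in which no simulated loss was as small as the call threshold. The number of arrays limits the precision.

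Members and lists were chosen with earlier results of these data known. Named were the 3 loci, their windows, the lowest and highest probe of each and the lowest run of 5 probes per array. Planned rules on comparison genes and on genes with a like pattern could not be applied, since the scanner files used here name no gene, and the gene table is of GRCm38. Alternatives were other summaries, normexp (offset 50, on pixel medians), loess, no dim probes, other centring and flanks, other call settings, the replicate number as a block, the shared slide and each array left out.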

Additional observations from a re-analysis of the deposited data

Results flagged for a closer look

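The genotype difference of the Btg1 locus minus its flanks was -0.0196 (Ikzf1+/- minus Ikzf1+/+, n = 5 each, exact permutation p = 0.00794). It was marked because the effect of tumour against non-leukemic DNA differed between the genotypes by a test of the difference itself, 1 of 3 such tests made, 1 per locus. The share of other stretches that would pass it was not counted. By limma, 16.6% of all autosomal windows of 100 kb had an unadjusted p under 0.05 between the genotypes. Of 18 groups of 5 arrays checked for a lone high or low tumour, 0 were marked; chance marks about 1 in 20.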

How the results depend on the processing

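Genotype differences of the locus means depended on scaling. With normexp they were +0.165 at Etv6 (exact permutation p = 0.00794), +0.013 at Rb1 and +0.093 at Btg1 (p = 0.00794), without centring +0.031 (p = 0.00794), +0.019 and +0.0017, and Btg1 centred on its chromosome gave -0.034 (p = 0.00794). Leaving out each array gave 0.0076 to 0.015 at Etv6, -0.013 to 0.010 at Rb1 and -0.023 to -0.013 at Btg1, which passed without Ikzf1+/+ tumour 5 (exact permutation p = 0.0317) or Ikzf1+/- tumour 2 (p = 0.0476). The locus minus flanks was +0.0162 at Etv6 with flanks of 500 kb (exact permutation p = 0.00977); at Rb1 it was +0.0027 by the median over probes, +0.0030 with loess and +0.0027 without dim probes; at Btg1 it was +0.0069 by the median (p = 0.186) and +0.0060 with flanks of 500 kb (p = 0.195). Leaving out each array gave 0.0050 to 0.011, -0.0043 to 0.0021 and 0.012 to 0.016. The genotype difference of this value was +0.064 with normexp at Etv6 (exact permutation p = 0.0317), -0.0225 with normexp (p = 0.0397) and -0.00027 with loess at Rb1, and -0.016 by the median (p = 0.103) and +0.0256 with normexp at Btg1; leaving out each array gave 0.0031 to 0.016, 0.0023 to 0.017 and -0.022 to -0.017. The cause of these changes was not tested.

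Same-numbered tumours of the genotypes correlated at -0.018 to 0.20 over windows, so the numbers were not taken as pairs. With the replicate number as a block the genotype differences of the locus means were +0.011 (p = 0.375), -0.0019 (p = 0.938) and -0.019 (p = 0.188), those of the locus minus flanks +0.010 (p = 0.50), +0.0079 (p = 0.312) and -0.0196 (p = 0.0625, the smallest that 5 pairs allow), and 0 of 9 windows passed; 2 of 5 Ikzf1+/+ tumours correlated best with their own number. Only 1 slide held both genotypes, 1 array each; within it the locus means differed by 0.0048, 0.022 and -0.0077 and the locus minus flanks by 0.00045, 0.0096 and -0.021, and a slide block rests on this pair alone.

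Loss calls stayed at 0 except in 3 settings. A penalty factor of 1 gave 1 at Etv6 (7 probes at -0.438, Ikzf1+/+ tumour 1) and 1 at Rb1 (8 probes at -0.474, Ikzf1+/+ tumour 4). Calls of 3 probes at the main penalty gave 0 at each locus. With 3 probes and a penalty factor of 1, a setting added after seeing the data, 2 arrays had a call at Etv6 and 1 at Rb1. Beside the segments above, Ikzf1+/+ tumour 4 then had 4 probes at -0.435 in Etv6 and 4 probes at -0.558 in Rb1. Normexp gave 1 at Btg1, 15 probes at -0.361 in Ikzf1+/+ tumour 1, which lay at -0.087 on processed signals. At 2 SDs the highest limits were 13.5, 17.2 and 18.97% of cells at Etv6, Rb1 and Btg1. The lowest runs of 3 and 10 probes were -0.57 and -0.32 at Etv6, -0.74 and -0.42 at Rb1 and -0.64 and -0.23 at Btg1. Windows over the loci gave 0 calls in every setting and with each array left out; over all autosomes the count was 5, with 0 by the median over probes, 0 with at least 10 probes, 1 with loess, 1 with the replicate block, 100 with normexp, 25 without Ikzf1+/+ tumour 3, 2 without Ikzf1+/- tumour 2 and 1 without each of the other 8 arrays. Without dim or saturated probes the excess of probe SD of Btg1 over Etv6 was 0.0037 (exact permutation p = 0.213). A loss in a coverage hole was not detectable, and a loss of a whole locus in fewer cells than its limit would not have passed that limit.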
